A study of Homo sapiens with 6 samples.

Results

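The collagen chains were taken as the rows of a gene count table whose symbol is COL, a number, A and a number. This gave 41 genes of the 34811 in the table, each coding for 1 alpha chain. The rule uses the symbol alone and no measured value, but it was set with earlier results of these data known. The study asked what loss of cyclooxygenase-1 (COX-1, gene PTGS1), an enzyme that makes prostaglandins from arachidonic acid, does to ovarian cancer cells. OVCAR-3, an established cell line from a high-grade serous ovarian carcinoma, carried a plasmid for a short hairpin RNA and a puromycin resistance gene. In the 3 libraries called OV3/SCR the hairpin was a scrambled sequence, and in the 3 called OV3/COX1KD it was directed against COX-1. RNA sequencing used 3 passages of each line, grown in the same serum-containing medium and collected before confluence. Each line was a single selected clone (OV3/SCR clone #1 and OV3/COX1KD clone #2), so that an effect of the knockdown and a difference between the clones cannot be told apart. The libraries of a line are passages of that clone, and the p-values measure the spread between them. For the same reason a difference in RNA per cell cannot be told apart here from a change in the mix of cells.

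Collagens are secreted or membrane-bound proteins whose chains wind around each other into a triple helix inside the endoplasmic reticulum, helped by enzymes that hydroxylate proline and lysine and by dedicated chaperones. Fibrillar collagens are then trimmed by proteinases and pack into the fibrils of stroma, tendon and cartilage. Types IV, VI, VII, XV and XVIII instead build or border the basement membrane, the sheet on which epithelial cells sit, while the fibril-associated collagens with interrupted triple helices (FACIT) bind to fibril surfaces and the transmembrane collagens are anchored in the cell membrane. Carcinoma cells meet collagen both from stromal fibroblasts and from their own synthesis. Only RNA of the cultured cells was measured here.

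Each library held 25291505 to 27391538 reads assigned to genes. PTGS1 had 713, 658 and 641 reads in OV3/SCR against 456, 486 and 501 in OV3/COX1KD, and its level fell from 25.6 ± 1.02 to 18.8 ± 0.637 CPM (reads relative to the scaled library total, mean ± SD, n = 3 each, log2 fold change -0.45, SE 0.057, edgeR FDR 1.34e-06). This scaling used edgeR's trimmed mean of M values (TMM), log2 fold changes are OV3/COX1KD over OV3/SCR, and FDR is the Benjamini-Hochberg adjusted p of edgeR's quasi-likelihood test over the 17309 genes that passed the filter on low counts. A gene was called at an FDR under 0.01, and a change of more than 2.5-fold was the second criterion. The 8 epithelial markers of ovarian carcinoma were above 3 reads in every library, with summed levels of 4650 to 4680 CPM in OV3/SCR and 5998 to 6175 CPM in OV3/COX1KD. Of these, 6 were called higher and 2 lower in OV3/COX1KD (PAX8, log2 fold change -0.76, and KRT7, -0.14). Among all tested genes, 25.8% were called higher and 22.1% lower, and the markers were not tested against these shares. The 7 fibroblast and mesenchymal markers summed to 3.82 to 4.75 CPM and 3.52 to 4.82 CPM, LUM and THY1 were at or under 3 reads in every library, and none of the 3 tested was called. POSTN and PECAM1, also listed for fibroblasts and endothelium, were not found among the gene symbols of the counts. Endothelial markers (3 genes) summed to 2.45 to 3.22 CPM and 2.87 to 3.56 CPM, and leukocyte markers (4 genes) to 0.824 to 1.46 CPM and 0.525 to 0.957 CPM. The part of these markers in the collagen values was not tested.

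The summed collagen RNA was higher in OV3/COX1KD, but classes and single chains moved both ways. Summed over the 41 chains, the level was 1516, 1491 and 1499 CPM in OV3/SCR against 1949, 1788 and 1905 CPM in OV3/COX1KD. COL12A1 and COL18A1 made up 65.0% to 65.4% of the collagen reads in OV3/SCR and 58.9% to 61.9% in OV3/COX1KD. Without these 2 genes the sum was 527, 522 and 518 CPM against 760, 736 and 727 CPM. The groups did not overlap in either sum. By class, the mean sum rose from 254 to 358 CPM for type IV and from 62.3 to 174 CPM for type VI. It fell from 96.8 to 74.2 CPM for the fibrillar chains, and was also lower for type VII and COL28A1. The FACIT sum, which held COL12A1, rose from 639 to 730 CPM, and that of types XV and XVIII from 402 to 487 CPM. The small sums of the transmembrane and short-chain classes were higher.

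Of the 41 chains, 30 passed the filter, and 22 of these (73.3%) were called, against 47.9% of all tested genes. The 12 chains that rose were COL4A1, COL4A2, COL4A5, COL6A1, COL6A2, COL8A2, COL12A1, COL14A1, COL15A1, COL18A1, COL21A1 and COL23A1, beside a share of higher calls of 25.8% among all tested genes. The 10 that fell were COL1A1, COL2A1, COL7A1, COL9A3, COL11A2, COL16A1, COL17A1, COL24A1, COL27A1 and COL28A1, beside 22.1% lower calls among all tested genes. More than 2.5-fold changes were found for 7 of the 30 (23.3%, against 3.92% of all tested genes). COL6A2, COL8A2, COL14A1, COL15A1 and COL21A1 rose by that margin (1.58% of all tested genes), and COL16A1 and COL17A1 were lower (2.34%). COL8A2 and COL14A1 passed the filter only through the OV3/COX1KD libraries, where they were high, so that their difference was in part set by the filter. Both are included in the counts and shares given here, which were in part set by the filter as well. With at least 10 counts required in every library, 3 chains rose and 2 fell by more than 2.5-fold. The groups did not overlap for 21 of the 30 chains (70.0%, against 63.1% of all tested genes), which are the called chains without COL12A1. The median log2 fold change of the 30 chains was 0.024, with a range of -2.53 to 2.33, beside a median of -0.0087 over all tested genes.

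**Figure D1:**
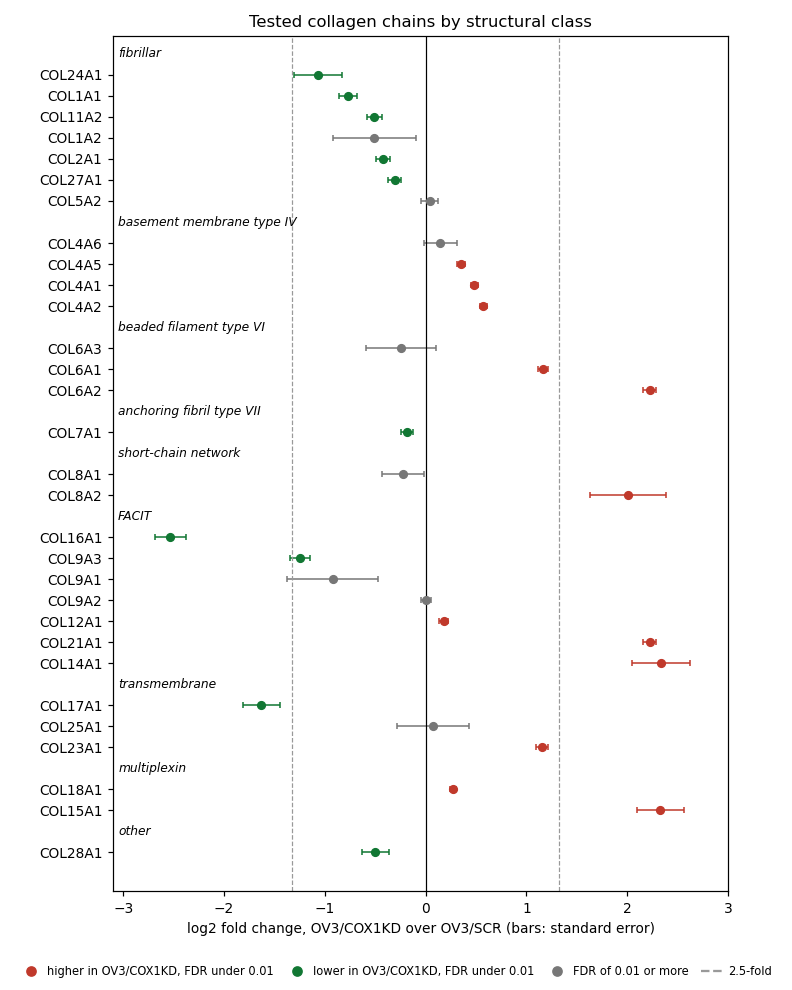
Log2 fold change (OV3/COX1KD over OV3/SCR, x axis) of the 30 tested collagen chains, grouped by class on the y axis. Points are edgeR estimates, bars are ± 1 SE, colour gives the call at an FDR under 0.01 and dashed lines mark 2.5-fold. The tested fibrillar chains lie below 0 except COL5A2 (0.042), and the type IV chains and both multiplexins lie above it.

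**Figure D2:**
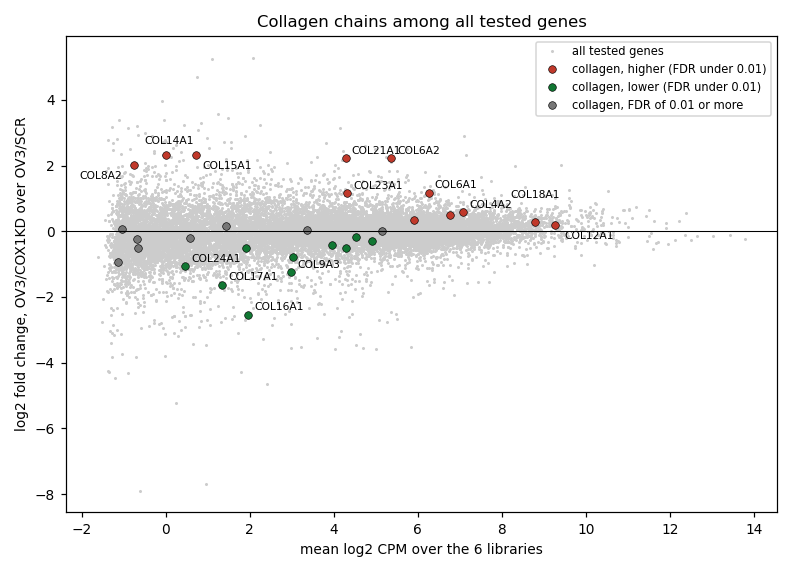
Mean log2 CPM over the 6 libraries (x axis) against log2 fold change (OV3/COX1KD over OV3/SCR, y axis), with all 17309 tested genes in grey and the 30 tested collagen chains in colour. COL6A2 and COL21A1 combine a rise of 2.22 with moderate levels, whereas COL8A2, COL14A1 and COL15A1 lie among low genes and COL12A1 and COL18A1 at the upper end with small changes.

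Sequence before the start site is shown for 5 chains, because COL4A1 and COL4A2 share it and rose together, and because COL6A2, COL16A1 and COL17A1 were the chains with a single start site in the table that passed 2.5-fold and had more than 20 reads in every library. The sequences are from RefSeq (GRCh38.p14), whose table gave a start site for 31 of the 41 chains and a single one for 23. COL4A1 and COL4A2 point away from each other, and the whole stretch of 126 bases between their start sites is given on the plus strand (chr13:110307158-110307283). For the others, the 250 bases before the start site are given on the strand of the gene: COL6A2 on the plus strand (chr21:46097862-46098111), COL16A1 on the minus strand (chr1:31704018-31704267) and COL17A1 on the minus strand (chr10:104085881-104086130). Capitals mark matches on either strand to the CCAAT box (CCAAT), the GC box, which reads GGGCGG, and the TATA box, which reads TATAAA. No match overlapped one of another motif.
COL4A1 and COL4A2: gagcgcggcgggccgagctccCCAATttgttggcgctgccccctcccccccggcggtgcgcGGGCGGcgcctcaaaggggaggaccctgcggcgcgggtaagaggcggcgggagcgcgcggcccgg
COL6A2: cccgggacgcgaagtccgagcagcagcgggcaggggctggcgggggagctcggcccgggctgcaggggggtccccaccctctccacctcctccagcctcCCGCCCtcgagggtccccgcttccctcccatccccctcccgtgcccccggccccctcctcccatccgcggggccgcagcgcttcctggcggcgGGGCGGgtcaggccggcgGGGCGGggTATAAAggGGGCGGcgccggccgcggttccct
COL16A1: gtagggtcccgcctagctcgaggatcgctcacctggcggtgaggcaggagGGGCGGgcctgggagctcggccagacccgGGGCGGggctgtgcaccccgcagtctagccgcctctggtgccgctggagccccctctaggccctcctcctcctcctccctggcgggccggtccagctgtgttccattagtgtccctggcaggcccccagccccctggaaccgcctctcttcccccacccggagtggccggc
COL17A1: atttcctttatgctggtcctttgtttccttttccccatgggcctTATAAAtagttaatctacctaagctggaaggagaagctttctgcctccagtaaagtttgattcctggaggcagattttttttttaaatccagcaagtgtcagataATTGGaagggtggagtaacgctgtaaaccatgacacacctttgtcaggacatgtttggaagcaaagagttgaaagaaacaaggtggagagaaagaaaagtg

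The stretch between COL4A1 and COL4A2 was 80.2% G and C and held 1 CCAAT box and 1 GC box, motifs that 21.1% and 34.6% of all 35116 promoters held in their last 126 bases. COL6A2 (79.6% G and C) had 4 GC boxes and a TATA box whose last base was 27 bases before the start site. COL16A1 (73.2%) had 2 GC boxes, while COL17A1 (40.4%) had none and held a CCAAT box and a TATA box, the latter 201 bases before the start site. Over the 250 bases before the start, 42.6% of all promoters held a GC box, 10.7% a TATA box and 32% a CCAAT box. These are matches of letters only.

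To compare chains with each other, levels were divided by exon length (TMM-normalized CPM per kilobase of exon). The highest in OV3/SCR were COL18A1 (47.4 ± 1.69) and COL12A1 (30.7 ± 0.394), followed at a distance by COL6A1 (8.49 ± 0.586), COL9A2 (8.38 ± 0.158), COL4A1 (6.19 ± 0.113), COL4A2 (5.62 ± 0.0788) and COL4A5 (4.42 ± 0.108). COL6A1 and COL9A2 did not differ beyond their spread in OV3/SCR. In OV3/COX1KD, COL6A1 (19.1 ± 0.692) and COL6A2 (12.7 ± 0.859) followed COL18A1 (57.3 ± 1.76) and COL12A1 (34.7 ± 3.38), ahead of COL4A1 (8.65 ± 0.417), COL9A2 (8.43 ± 0.427) and COL4A2 (8.37 ± 0.490), which did not differ from one another beyond their spread. The chains of type I collagen, the main product of stromal fibroblasts, were low in these cells. COL1A1 had 1.12 in OV3/SCR and 0.658 in OV3/COX1KD, COL1A2 had 0.0600 and 0.0420, and COL3A1 had no read in 5 of 6 libraries.

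**Figure D3:**
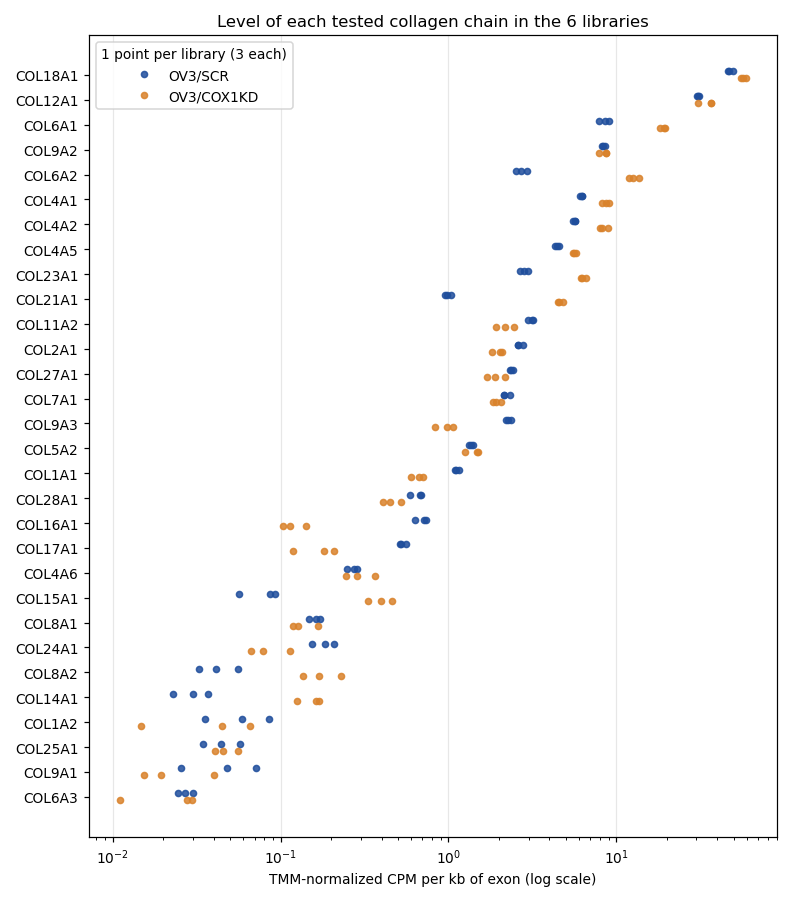
Level in each library (TMM-normalized CPM per kilobase of exon, log axis) of collagen chains, with OV3/SCR and OV3/COX1KD libraries as separate points. COL18A1 and COL12A1 stand above the other chains in both lines. The points of COL6A2 move from a mean of 2.73 to 12.7 and those of COL16A1 from 0.694 to 0.119.

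Of the 6 type IV collagen chains of the basement membrane, 4 were tested and COL4A1, COL4A2 and COL4A5 rose. Among all tested genes, 25.8% were called higher and 22.1% lower, and the class was not tested against these shares. The genes COL4A1 (chr13:110801310-110959504) and COL4A2 (chr13:110958159-111165556, both GRCh37) code for the chains of the network found in all basement membranes. COL4A1 had 2440, 2401 and 2301 reads in OV3/SCR against 3225, 3018 and 3530 in OV3/COX1KD. COL4A2, its partner, had 2908, 2781 and 2832 reads in OV3/SCR against 4325, 3844 and 4237 in OV3/COX1KD. The lines did not overlap for either gene, with OV3/COX1KD higher. COL4A1 rose 1.40-fold (log2 fold change 0.48, SE 0.038, edgeR FDR 1.30e-09) and COL4A2 1.49-fold (log2 fold change 0.57, SE 0.038, edgeR FDR 1.42e-10). COL4A5, a chain of the network of kidney and other specialised basement membranes, had 1366, 1373 and 1391 reads in OV3/SCR against 1670, 1655 and 1832 in OV3/COX1KD, again without overlap, and rose 1.28-fold (log2 fold change 0.35, SE 0.039, edgeR FDR 2.17e-07). Its head-to-head neighbour COL4A6 had 68, 69 and 60 reads in OV3/SCR against 67, 85 and 61 in OV3/COX1KD, with overlapping groups (log2 fold change 0.15, SE 0.17, edgeR FDR 0.471). COL4A3 and COL4A4, the remaining chains of the type, had at most 10 reads in any library and were not tested.

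Type VI collagen, which forms beaded microfilaments beside basement membranes, rose strongly at its COL6A1 and COL6A2 chains. COL6A1 (chr21:47401684-47424964, GRCh37) had 1332, 1243 and 1126 reads in OV3/SCR against 2730, 2685 and 2698 in OV3/COX1KD. COL6A2 on the same chromosome (chr21:47518026-47552762), had 420, 353 and 373 reads in OV3/SCR against 1836, 1690 and 1701 in OV3/COX1KD. The OV3/COX1KD libraries were all well above the OV3/SCR libraries for both genes, and the libraries within a line were close to each other. COL6A2 rose from 14.6 ± 1.11 to 68.0 ± 4.58 CPM, or 4.66-fold (log2 fold change 2.22, SE 0.061, edgeR FDR 2.07e-16), and COL6A1 from 47.0 ± 3.24 to 106 ± 3.83 CPM, or 2.24-fold (log2 fold change 1.17, SE 0.046, edgeR FDR 4.22e-14). COL6A3, the large chain that completes the classical type VI molecule, had only 14, 17 and 15 reads in OV3/SCR against 16, 6 and 16 in OV3/COX1KD, and its groups overlapped (log2 fold change -0.24, SE 0.35, edgeR FDR 0.571). COL6A6, a chain related to it, had at most 5 reads and was not tested, and COL6A5 was not analysed here.

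Both multiplexins, the collagens of the basement membrane zone that carry sugar chains, rose, beside 25.8% higher calls among all tested genes. COL15A1 (chr9:101705461-101833074) had 10, 15 and 16 reads in OV3/SCR against 56, 77 and 70 in OV3/COX1KD. This low gene rose 5.02-fold, from 0.522 ± 0.130 to 2.64 ± 0.423 CPM (log2 fold change 2.33, SE 0.24, edgeR FDR 6.00e-08). COL18A1, whose C-terminal fragment is endostatin, had 11156, 10226 and 10219 reads in OV3/SCR against 12608, 11809 and 12884 in OV3/COX1KD. All OV3/COX1KD libraries were above all OV3/SCR libraries, but the step was small, 1.21-fold (log2 fold change 0.27, SE 0.032, edgeR FDR 5.59e-07). Of the exon length of COL18A1, 18.5% is shared with SLC19A1, a folate carrier gene on the opposite strand (1201, 1154 and 1146 reads in OV3/SCR against 1333, 1296 and 1339 in OV3/COX1KD, also called higher). Whether the counting used strand, and how it treated reads shared by genes, is not given in the sources used here. The effect of the shared stretch on either count is therefore not known. COL7A1, the chain of the anchoring fibrils below the basement membrane, had 687, 624 and 621 reads in OV3/SCR against 537, 573 and 550 in OV3/COX1KD. It was lower in every OV3/COX1KD library (log2 fold change -0.19, SE 0.058, edgeR FDR 0.00980), a call that rested on a narrow margin. The FDR was above 0.01 with the replicate number as a block (0.0117), in DESeq2 (0.0301), without the count filter (0.0294), and without any single library other than OV3/COX1KD replicate 2, where it reached 0.0652 without OV3/SCR replicate 1.

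Most of the tested fibrillar chains fell. Of the 11 fibrillar genes, 7 were tested, 5 fell and none rose, and the summed level of the class was 96.6, 98.0 and 95.6 CPM in OV3/SCR and 75.4, 80.4 and 66.8 CPM in OV3/COX1KD. The called shares over all tested genes were 22.1% lower and 25.8% higher, and the class was not tested against them. Of the chains described here, COL27A1 was among the 10 with the highest mean CPM, and the others were named after their values were seen. COL1A1, the main chain of type I collagen, had 265, 270 and 258 reads in OV3/SCR against 152, 160 and 143 in OV3/COX1KD (log2 fold change -0.77, SE 0.091, edgeR FDR 5.26e-07). COL1A2, its partner in the type I molecule, was near the detection limit with 17, 10 and 24 reads in OV3/SCR against 18, 4 and 13 in OV3/COX1KD (log2 fold change -0.51, SE 0.41, edgeR FDR 0.306). The OV3/COX1KD libraries were all below the OV3/SCR libraries for COL1A1 and overlapped with them for COL1A2. The cartilage fibril genes COL2A1 and COL11A2 were also transcribed. COL2A1 had 460, 481 and 449 reads in OV3/SCR against 350, 339 and 325 in OV3/COX1KD (log2 fold change -0.42, SE 0.069, edgeR FDR 2.69e-05), and COL11A2 had 587, 605 and 605 reads in OV3/SCR against 403, 456 and 376 in OV3/COX1KD (log2 fold change -0.51, SE 0.074, edgeR FDR 7.27e-06). No OV3/COX1KD library reached the level of an OV3/SCR library for either gene, and the same held for COL24A1 (47, 52 and 38 reads in OV3/SCR against 16, 19 and 29 in OV3/COX1KD) and COL27A1 (912, 866 and 843 reads in OV3/SCR against 673, 761 and 636 in OV3/COX1KD), which code for fibrillar chains of developing bone and cartilage. Their log2 fold changes were -1.06 (SE 0.24, edgeR FDR 7.42e-04) and -0.31 (SE 0.066, edgeR FDR 4.96e-04). COL5A2, a chain of the type V collagen that nucleates type I fibrils, had 275, 261 and 252 reads in OV3/SCR against 275, 272 and 246 in OV3/COX1KD and was not called (log2 fold change 0.042, SE 0.084, edgeR FDR 0.692).

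FACIT collagens held changes in both directions. COL21A1 (chr6:55921388-56258892), a small FACIT chain of vessel walls, had 176, 178 and 184 reads in OV3/SCR against 784, 794 and 883 in OV3/COX1KD. Its level in OV3/COX1KD was 4.67-fold that in OV3/SCR, 32.0 ± 1.03 against 6.84 ± 0.258 CPM (log2 fold change 2.22, SE 0.066, edgeR FDR 6.09e-16), and no library overlapped. COL16A1 (chr1:32117864-32169920), a FACIT chain that binds integrins, went the other way with 156, 172 and 177 reads in OV3/SCR against 33, 24 and 28 in OV3/COX1KD. It fell 5.79-fold, from 6.42 ± 0.517 to 1.11 ± 0.183 CPM (log2 fold change -2.53, SE 0.15, edgeR FDR 3.28e-11), the lowest fold change of the 30 chains. COL14A1 (chr8:121072019-121385812), which binds fibrils through decorin, was close to the floor in the control line with 10, 8 and 6 reads in OV3/SCR against 42, 32 and 46 in OV3/COX1KD. Its groups did not overlap, and the rise was 5.04-fold (log2 fold change 2.33, SE 0.29, edgeR FDR 9.01e-07). COL14A1 passed the filter only through the OV3/COX1KD libraries, so that this gap and FDR were in part set by the filter.

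COL12A1, the FACIT chain with the most reads of all collagens, had 15245, 15069 and 15167 reads in OV3/SCR against 17348, 14593 and 18542 in OV3/COX1KD. In CPM, OV3/COX1KD replicates 1 and 3 (688.5 and 695) were above OV3/SCR (571.0, 577 and 586), while replicate 2 (582) lay within its range. The fit called it higher (log2 fold change 0.18, SE 0.047, edgeR FDR 0.00260), but the call was lost in DESeq2 (FDR 0.0769), with scaling by total counts (0.0528), and without any single library other than OV3/COX1KD replicate 2 (0.0107 to 0.0251). Without replicate 2 the log2 fold change was 0.27 (edgeR FDR 3.95e-16). Over all genes, that library also differed more from the others of its line (chi-square per degree of freedom 4.44 and 5.74) than the remaining pairs within a line (1.74 to 2.91), and its part in the COL12A1 value beyond this was not tested.

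The FACIT chains of type IX, which decorate cartilage fibrils, moved unequally. COL9A2 had 927, 919 and 933 reads in OV3/SCR against 917, 921 and 892 in OV3/COX1KD with overlapping groups and was not called (log2 fold change 0.0065, SE 0.049, edgeR FDR 0.918). COL9A3 (chr20:61447596-61472511) had 305, 287 and 276 reads in OV3/SCR against 120, 129 and 108 in OV3/COX1KD, so that every OV3/COX1KD library was under every OV3/SCR library, and it fell 2.38-fold (log2 fold change -1.25, SE 0.098, edgeR FDR 1.46e-09). COL9A1 was low, with 7, 13 and 19 reads in OV3/SCR against 4, 5 and 11 in OV3/COX1KD, overlapping groups and no call (log2 fold change -0.92, SE 0.45, edgeR FDR 0.0870).

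Among the transmembrane collagens, COL17A1 and COL23A1 moved in opposite directions. COL17A1 (chr10:105791044-105845638), the hemidesmosome protein that ties basal epithelial cells to the basement membrane, had 96, 95 and 101 reads in OV3/SCR against 21, 32 and 39 in OV3/COX1KD. The drop from 3.71 ± 0.165 to 1.19 ± 0.323 CPM was 3.10-fold (log2 fold change -1.63, SE 0.18, edgeR FDR 2.38e-07) without overlap. COL23A1, which can be shed from the cell surface and was named after its values were seen, had 347, 323 and 303 reads in OV3/SCR against 723, 682 and 716 in OV3/COX1KD, a rise of 2.23-fold (log2 fold change 1.16, SE 0.062, edgeR FDR 4.41e-12) that left a clear gap between the lines. COL25A1, a brain collagen found with amyloid plaques and named in the same way, had 8 to 13 reads in all libraries and was not called (log2 fold change 0.076, SE 0.36, edgeR FDR 0.870).

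Short-chain collagens form hexagonal networks, as in the membrane under the corneal endothelium. COL8A2 (chr1:36560840-36590823) had 7, 4 and 5 reads in OV3/SCR against 20, 27 and 17 in OV3/COX1KD, a rise from 0.203 ± 0.0551 to 0.836 ± 0.222 CPM (log2 fold change 2.01, SE 0.37, edgeR FDR 1.18e-04). All OV3/COX1KD libraries were higher, at counts that stayed under 30. COL8A2 too passed the filter only through the OV3/COX1KD libraries, so that its gap and FDR were in part set by the filter. COL8A1, the other chain of the type, had 37, 40 and 42 reads in OV3/SCR against 28, 30 and 42 in OV3/COX1KD with a shared value of 42 at the top of both groups (log2 fold change -0.22, SE 0.21, edgeR FDR 0.380). COL28A1, a von Willebrand factor A domain collagen of peripheral nerve named after its values were seen, had 121, 103 and 116 reads in OV3/SCR against 68, 87 and 80 in OV3/COX1KD and fell (log2 fold change -0.50, SE 0.13, edgeR FDR 0.00347). Its call was lost in DESeq2 (FDR 0.0123) and without OV3/SCR replicate 1 (0.0194), OV3/SCR replicate 3 (0.0191), OV3/COX1KD replicate 1 (0.0226) or OV3/COX1KD replicate 3 (0.0134).

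Ratios of levels per kilobase of exon were taken within each library for 5 pairs of chains. COL4A5 and COL4A1 are of the same type but of different networks, so that theirs is not a ratio between partners. COL6A2 over COL6A1 was 0.327, 0.295 and 0.344 in OV3/SCR and 0.698, 0.653 and 0.654 in OV3/COX1KD, a shift of 1.06 on the log2 scale (exact two-sided permutation test, p = 0.1, 0.167 after adjustment over the 5 ratios). With 3 libraries against 3 the smallest p that this test can give is 0.1, so that no ratio could pass 0.05. COL9A3 over COL9A2 was 0.286, 0.272 and 0.258 in OV3/SCR and 0.114, 0.122 and 0.105 in OV3/COX1KD, a log2 difference of -1.26 (exact two-sided permutation test, p = 0.1, 0.167 after adjustment over the 5 ratios). The groups did not overlap for either ratio. COL4A1 over COL4A2 was 1.10, 1.13 and 1.07 in OV3/SCR and 0.980, 1.03 and 1.10 in OV3/COX1KD (exact two-sided permutation test, p = 0.2, 0.250 after adjustment over the 5 ratios). These values near 1 hold for the exon lengths used, 14.7 kb for COL4A1 and 19.3 kb for COL4A2. Other lengths would scale a ratio by the same factor in every library. COL4A5 over COL4A1 was 0.691, 0.706 and 0.747 in OV3/SCR and 0.640, 0.677 and 0.641 in OV3/COX1KD, slightly lower without overlap (exact two-sided permutation test, p = 0.1, 0.167 after adjustment over the 5 ratios). COL11A2 over COL2A1 was 1.15, 1.14 and 1.22 in OV3/SCR and 1.04, 1.22 and 1.05 in OV3/COX1KD and overlapped (exact two-sided permutation test, p = 0.3, 0.300 after adjustment over the 5 ratios).

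**Figure D4:**
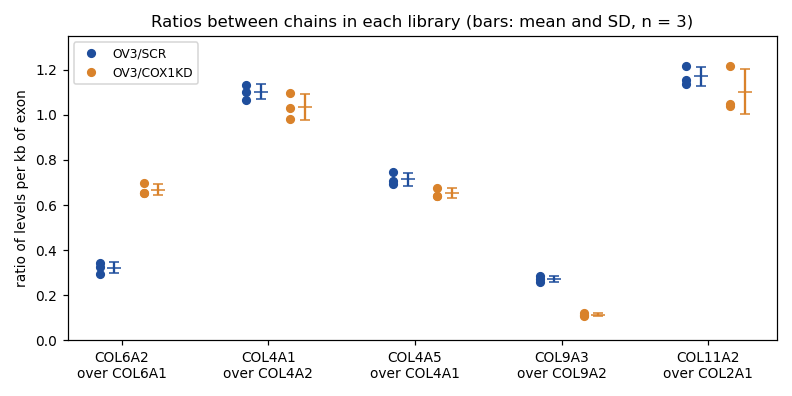
Ratio of levels per kilobase of exon between pairs of collagen chains (y axis) in each of the 6 libraries, with points for OV3/SCR and OV3/COX1KD. COL6A2 over COL6A1 moves from a mean of 0.322 to 0.669 and COL9A3 over COL9A2 from 0.272 to 0.114. With the exon lengths used, COL4A1 over COL4A2 lies near 1 in both lines.

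The genes around the 7 chains that changed more than 2.5-fold were examined within 1 megabase on either side (GRCh37, collagens left out, genes at a mean log2 CPM of 1 or more). The median log2 fold change of these neighbours was -0.087 over 15 genes around COL6A2, -0.20 over 6 around COL21A1, 0.091 over 11 around COL15A1, -0.13 over 20 around COL8A2 and 0.21 over 9 around COL14A1. It was -0.016 over 25 genes around COL16A1 and 0.082 over 14 around COL17A1. Called neighbours numbered 3 higher and 5 lower around COL6A2, 0 and 3 around COL21A1, 4 and 2 around COL15A1, 3 and 10 around COL8A2, 5 and 1 around COL14A1, 7 and 9 around COL16A1 and 2 and 3 around COL17A1. A change of more than 2.5-fold was found for 1 neighbour of COL14A1 and 2 neighbours of COL16A1, and for 0 neighbours of the other 5 chains. Over all tested genes, 25.8% were called higher, 22.1% lower and 3.92% beyond 2.5-fold. Those shares include genes below the level required of neighbours, and the neighbours were not tested against them. Beside COL4A1 and COL4A2 the 8 neighbours had a median of -0.14, with 0 called higher and 3 lower. Any part of the surrounding region in the collagen values was not tested.

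The 11 chains that did not pass the filter had 0 to 13 reads per library. COL22A1 and COL26A1 were not analysed here. The untested chains were COL3A1, COL4A3, COL4A4, COL5A1, COL5A3, COL6A6, COL10A1, COL11A1, COL13A1, COL19A1 and COL20A1. In the fit without the filter none of them was called, and COL11A1 (4, 1 and 0 reads against 10, 3 and 6) had the smallest edgeR FDR, 0.0320. The fibrillar chain COL5A3 (11, 12 and 7 reads in OV3/SCR against 4, 3 and 5 in OV3/COX1KD) and the FACIT chain COL20A1 (13, 10 and 4 reads in OV3/SCR against 3, 5 and 3 in OV3/COX1KD) had an FDR of 0.0533 and 0.0808 there. COL3A1, the type III chain, was at 0 in all OV3/SCR libraries and had 0, 0 and 4 reads in OV3/COX1KD.

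Among the enzymes and chaperones that modify and fold procollagen, 20 of 21 listed genes were tested, and 11 rose and 5 fell, beside called shares of 25.8% higher and 22.1% lower over all tested genes. With scaling by total counts, 7 of the 20 rose. The median log2 fold change of the list was 0.14, beside -0.0087 over all tested genes. SERPINH1, the collagen-specific chaperone of the endoplasmic reticulum and the most abundant of the list, had 29451, 28305 and 28388 reads in OV3/SCR against 28323, 26685 and 28721 in OV3/COX1KD and was not called (log2 fold change -0.0092, SE 0.028, edgeR FDR 0.797). P4HB, a subunit of prolyl 4-hydroxylase, had a log2 fold change of 0.32 (SE 0.028, edgeR FDR 6.57e-09), and PLOD1, a lysyl hydroxylase, one of 0.19 (SE 0.029, edgeR FDR 1.56e-05). LEPREL1 (P3H2), a prolyl 3-hydroxylase with a preference for basement membrane collagen, was the exception in size. It had 574, 604 and 601 reads in OV3/SCR against 206, 179 and 181 in OV3/COX1KD, with all OV3/COX1KD libraries far below OV3/SCR, and fell 3.07-fold (log2 fold change -1.62, SE 0.076, edgeR FDR 6.21e-13).

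Of 13 listed procollagen processing and cross-linking genes 12 were tested, 1 was higher and 4 were lower, with a median log2 fold change of -0.34. The called share of 41.7% was below the 47.9% of all tested genes (25.8% higher and 22.1% lower). The 4 that fell belong to the families of procollagen proteinases, and whether each cuts procollagen in these cells was not measured. TLL2, a tolloid-like proteinase of the family that removes C-propeptides, had 936, 973 and 937 reads in OV3/SCR against 155, 161 and 170 in OV3/COX1KD and fell 5.73-fold (log2 fold change -2.52, SE 0.064, edgeR FDR 7.15e-17). BMP1, the best known C-proteinase, had 1830, 1921 and 1833 reads in OV3/SCR against 1311, 1247 and 1247 in OV3/COX1KD (log2 fold change -0.52, SE 0.044, edgeR FDR 4.72e-09). The groups were separate for both genes. ADAMTS3 and ADAMTS14, which remove N-propeptides and were named after their values were seen, had log2 fold changes of -0.63 (edgeR FDR 5.91e-08) and -1.07 (edgeR FDR 2.63e-08). PCOLCE, an enhancer of the C-proteinases named in the same way, was the gene that rose (log2 fold change 0.98, SE 0.17, edgeR FDR 5.69e-05), and its relative PCOLCE2 was not called (log2 fold change 0.0040, SE 0.059, edgeR FDR 0.957). None of the 5 lysyl oxidase genes LOX and LOXL1 to LOXL4, which cross-link secreted collagen, was called (edgeR FDR 0.0226 to 0.678). LOX (log2 fold change -0.50) and LOXL3 (-0.29) were still lower in every OV3/COX1KD library, as was TLL1 (-0.39, edgeR FDR 0.0267), also not called. The groups did not overlap for 66.7% of the tested genes of this list, beside 63.1% of all tested genes.

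Of 10 listed collagen receptor genes 8 were tested, 4 rose and 1 fell, with a median log2 fold change of 0.098. The called share was 62.5%, beside 47.9% of all tested genes (25.8% higher and 22.1% lower). DDR1, the epithelial receptor tyrosine kinase for collagen, rose by 0.44 on the log2 scale (SE 0.029, edgeR FDR 1.11e-10). The integrin subunits that bind collagen on epithelial cells rose as well, ITGB1 by 0.20 (SE 0.029, edgeR FDR 7.79e-06) and ITGA2 by 0.45 (SE 0.064, edgeR FDR 5.09e-06). ITGA1 also rose, by 0.47 (edgeR FDR 3.94e-04), and MRC2, an endocytic receptor that takes up collagen for breakdown, fell by 0.76 on the log2 scale (edgeR FDR 5.92e-09), both named after their values were seen.

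**Figure D5:**
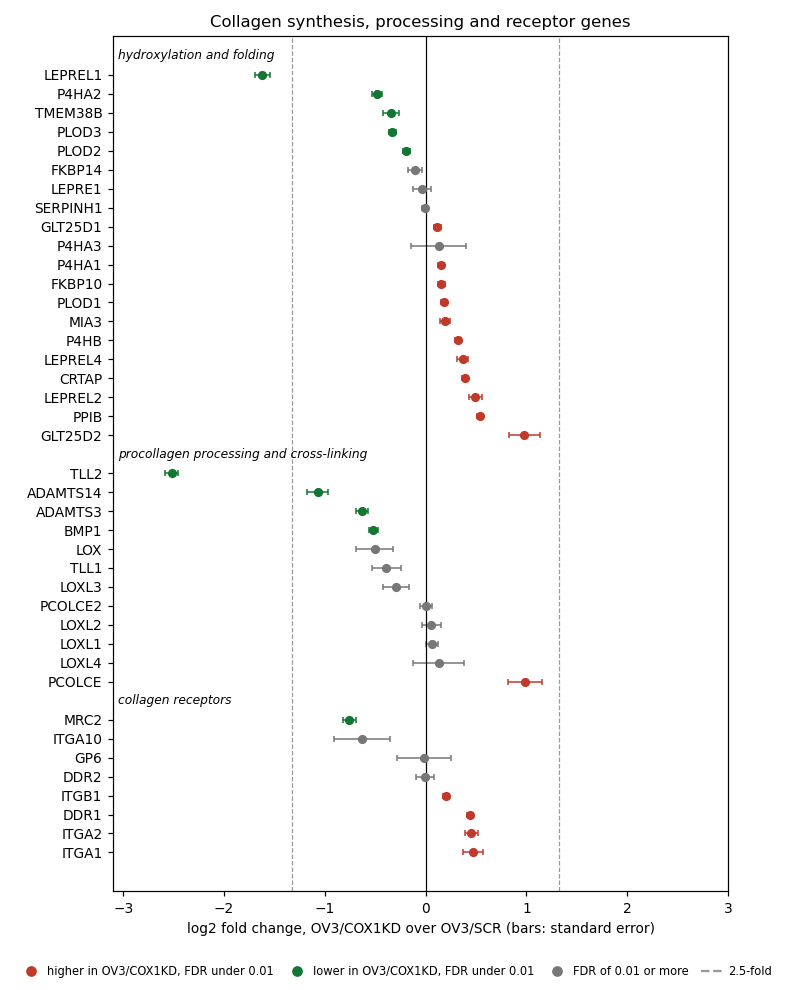
Log2 fold change (OV3/COX1KD over OV3/SCR, x axis) of the tested genes for procollagen hydroxylation and folding, processing and cross-linking, and collagen reception (y axis). Points are edgeR estimates, bars are ± 1 SE and dashed lines mark 2.5-fold. LEPREL1 at -1.62 and TLL2 at -2.52 are the genes beyond the dashed lines.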

How the data were processed

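RNA sequencing was done on 3 passages each of OV3/SCR and OV3/COX1KD. Per the labels, the authors processed the reads with CASAVA, FastQC, TopHat2 2.0, Cufflinks, HTSeq and DESeq2 on hg19 and deposited raw counts per gene, not normalized. The gene annotation and the strand setting are not given in the sources used here. Every column of the table was mapped to a library. Total counts were 25291505 to 27391538 per library, so that 3 reads, taken as the floor, equal 0.112 to 0.120 CPM, which covers counting error only. Within a line, no pair of libraries agreed within sampling noise.

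Counts were fitted in R 4.3.3 with edgeR 4.0.16 (TMM factors, filterByExpr, quasi-likelihood test, line as the sole term, no replicate block). Adjusted p-values (Benjamini-Hochberg) cover 17309 of 34811 genes. Calls needed an FDR under 0.01, with 2.5-fold as the second threshold. The SE is the log2 fold change divided by the root of the F statistic. Exon lengths and GRCh37 positions came from GENCODE 44, matched for 33556 genes. Ratios of chains were compared with exact permutation tests. The fit was also run on counts simulated from its own means and dispersions, which checks the fit alone and not differences between clones. The members and lists were chosen with earlier results of these data known. The naming rule took chains past 2.5-fold, the 10 with the highest mean CPM, chains of the same types, and, of the other lists, genes past 2.5-fold and the 3 most abundant. Other chains described singly, and some genes of the other lists, were named after their values were seen. Alternatives were DESeq2 1.42.0, other size factors, other filters, glmTreat, the replicate block and leaving out each library.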

Additional observations from a re-analysis of the deposited data

How the results depend on the processing

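The 22 called chains kept their direction in every alternative in which they were tested. The number of chains called was 22 as reported, 22 with DESeq2 size factors, 21 with total count scaling, 21 without the filter, 20 of 24 with at least 10 counts in every library and 19 with DESeq2. Higher calls beyond 2.5-fold numbered 3 with at least 10 counts in every library, because COL8A2 and COL14A1 were then not tested, and 3 with a test against that fold (glmTreat), which left 1 lower call. With total count scaling, 7 hydroxylation and folding genes were higher, and the median of all genes shifted by -0.077. Leaving out 1 library gave 19 to 22 called chains. The replicate numbers are shared, but same-numbered libraries deviated together only weakly (correlations 0.0045, 0.042 and 0.0090). With the replicate block 12 chains were higher and 9 lower, COL7A1 being the call lost. Calls of COL7A1, COL12A1 and COL28A1 depended on the setting, and the cause was not tested. Depth limits the 11 untested chains. Genes of the other lists named after their values were seen were not run singly.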
